A study of Mus musculus with 23 samples.

Results

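The genes described here are 10 core genes of the circadian clock, Arntl, Clock, Npas2, Per1, Per2, Per3, Cry1, Cry2, Nr1d1 and Nr1d2, taken by name from the 43154 features listed for each of 23 mouse heart libraries. Gene expression was measured by mRNA sequencing and is given as FPKM (fragments per kilobase of transcript, scaled to the mapped fragments of the library), which corrects for gene length and library size. The hearts came from C57BL/6 mice that were wild type (WT) or carried MHC-CnAtg (CnATg), an activated calcineurin A transgene driven by a myosin heavy chain promoter in heart muscle cells. The mice were given vehicle or JIB-04, a compound that inhibits histone demethylases of the Jumonji family, at 50 mg/kg on 3 days of each week.

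At day 45 there were 4 groups of 3 libraries, one of vehicle and another of JIB-04 for each genotype. At day 77 there were 3 groups: WT mice on JIB-04 with 3 libraries, and CnATg mice on vehicle or on JIB-04 with 4 libraries each. Treatment began at week 4 in the WT vehicle group and in the day-45 CnATg groups, and at week 5 in the day-77 CnATg groups. The start week of the WT JIB-04 mice was not given, and WT vehicle hearts of day 77 were not analysed here. The series text names vehicle as the only treatment of WT mice, whereas the sample labels give JIB-04 for 2 WT groups, and the labels were followed. The sample numbers of these 2 groups form a run apart from those of all other groups. The labels name no batch. A difference tied to that run cannot be told apart from genotype under JIB-04, or from JIB-04 in WT hearts. Age and start week go together in the CnATg groups and cannot be told apart. The labels give no time of day for the collection of the hearts and do not state that each library is a separate mouse, so the p-values measure only the spread between these libraries.

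The circadian clock is a feedback loop of transcription that runs in nearly every cell, heart muscle cells included. BMAL1, the protein of Arntl, pairs with CLOCK or NPAS2 and switches on the Period (Per1, Per2, Per3), Cryptochrome (Cry1, Cry2) and REV-ERB (Nr1d1, Nr1d2) genes through DNA sites called E-boxes. PER and CRY proteins then block BMAL1 and CLOCK, while the REV-ERB nuclear receptors repress Arntl, and RORA competes with them as an activator. A further branch acts at D-boxes, which are bound by the activators DBP, TEF and HLF and by the repressor NFIL3. Transcripts of most of these genes rise and fall over the day, so their level in a single heart depends on the hour of collection. The part of that hour in the differences below was not tested, since no label gives it.

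Promoter windows of the members were searched for the sequences that name these branches. Promoters of RefSeq (GRCm38.p6) were matched for 9 of the 10 members, all but Per2, with 13 start sites in all. The 250 bases before the start site are shown for 4 members, 5′ to 3′ on the strand of the gene and with motif matches in capitals. Per3 (chr4:151044666-151044915, minus strand), the member that was lower in CnATg hearts, is shown for its D-boxes. Nr1d1 (chr11:98775378-98775627, minus strand) and Arntl (chr7:113207215-113207464, plus strand) are shown as members that were higher in CnATg hearts, and Cry1 (chr10:85185055-85185304, minus strand) as a member with E-boxes that was not called in any comparison.
Per3: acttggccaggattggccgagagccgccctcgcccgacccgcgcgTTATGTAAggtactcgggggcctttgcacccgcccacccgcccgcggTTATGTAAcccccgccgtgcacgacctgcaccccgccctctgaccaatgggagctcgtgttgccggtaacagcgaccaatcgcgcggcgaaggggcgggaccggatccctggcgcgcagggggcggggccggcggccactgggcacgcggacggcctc
Nr1d1: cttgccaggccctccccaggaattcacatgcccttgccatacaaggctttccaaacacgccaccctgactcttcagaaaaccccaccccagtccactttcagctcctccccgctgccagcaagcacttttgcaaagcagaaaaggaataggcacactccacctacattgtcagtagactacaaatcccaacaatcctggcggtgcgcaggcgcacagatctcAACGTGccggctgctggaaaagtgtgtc
Arntl: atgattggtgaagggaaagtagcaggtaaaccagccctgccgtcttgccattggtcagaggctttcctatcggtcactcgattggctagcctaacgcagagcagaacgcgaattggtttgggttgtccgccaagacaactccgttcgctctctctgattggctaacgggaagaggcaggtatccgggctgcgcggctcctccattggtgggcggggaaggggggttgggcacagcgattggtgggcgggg
Cry1: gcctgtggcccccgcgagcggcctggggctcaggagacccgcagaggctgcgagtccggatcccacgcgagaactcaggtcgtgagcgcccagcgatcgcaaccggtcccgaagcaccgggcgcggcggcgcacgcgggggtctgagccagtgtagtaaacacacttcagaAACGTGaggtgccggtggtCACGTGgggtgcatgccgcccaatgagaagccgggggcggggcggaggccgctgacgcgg
Per3 held the D-box TTATGTAA in 2 copies, at 205 to 198 and 158 to 151 bases before the start. Cry1 held the E-box CACGTG at 60 to 55 and the E′-box CACGTT, read as AACGTG on the strand of the gene, at 79 to 74 bases before the start. Nr1d1 held the E′-box at 28 to 23 bases before the start, and the Arntl window held no match. The start site of Nr1d1 in the RefSeq table lies upstream of the 5′ end of the gene as located further on, and the bases after it were not found in a transcript of Nr1d1, unlike those of the other 3.

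Both strands were searched for 6 motifs. Among 32851 promoter windows of all genes, 6.02% held the E-box CACGTG, 3.85% the E′-box CACGTT and 0.819% the D-box TTATGTAA. A D-box in 2 or more copies, as in Per3, occurred in 6 windows, or 0.0183%. The D-box variant TTACGTAA occurred in 0.113% of windows, and the ROR and REV-ERB element, AAN directly followed by TAGGTCA or by TGGGTCA, in 0.177% and 0.174%. Among the members, Cry1 and Per1 held the E-box, Cry1, Cry2 and Nr1d1 the E′-box, and Per3 alone the D-box, while the other 3 motifs matched no member. No matches in the members overlapped, and a match describes letters in these windows, not a bound site.

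The genotype labels were checked against the transgene. FPKM of Ppp3ca, the gene of calcineurin A alpha, was 1415.4 to 1986.9 in the 14 CnATg libraries and 23.6 to 29.0 in the 9 WT libraries, and that of the calcineurin target Rcan1 was 66.8 to 113.9 and 24.1 to 37.4. Markers of ventricular heart muscle were present in every library, with a summed FPKM of 7 markers of 14268 to 20931. Read counts were not in the files. Relative depth, estimated from 3433 features of low level, was 1.003 to 1.164 of the mean library in CnATg and 0.741 to 1.003 in WT libraries. Many libraries shared the value 1.003, so this estimate is coarse and cannot show whether depth differed by genotype. Mitochondrial transcripts made up 15.49% to 17.38% of the summed FPKM in CnATg and 20.82% to 27.08% in WT libraries.

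In the plot of all members by library, the CnATg and WT libraries do not overlap for Arntl, Clock and Per3, as held for 20.4% of 13710 features.

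**Figure D1:**
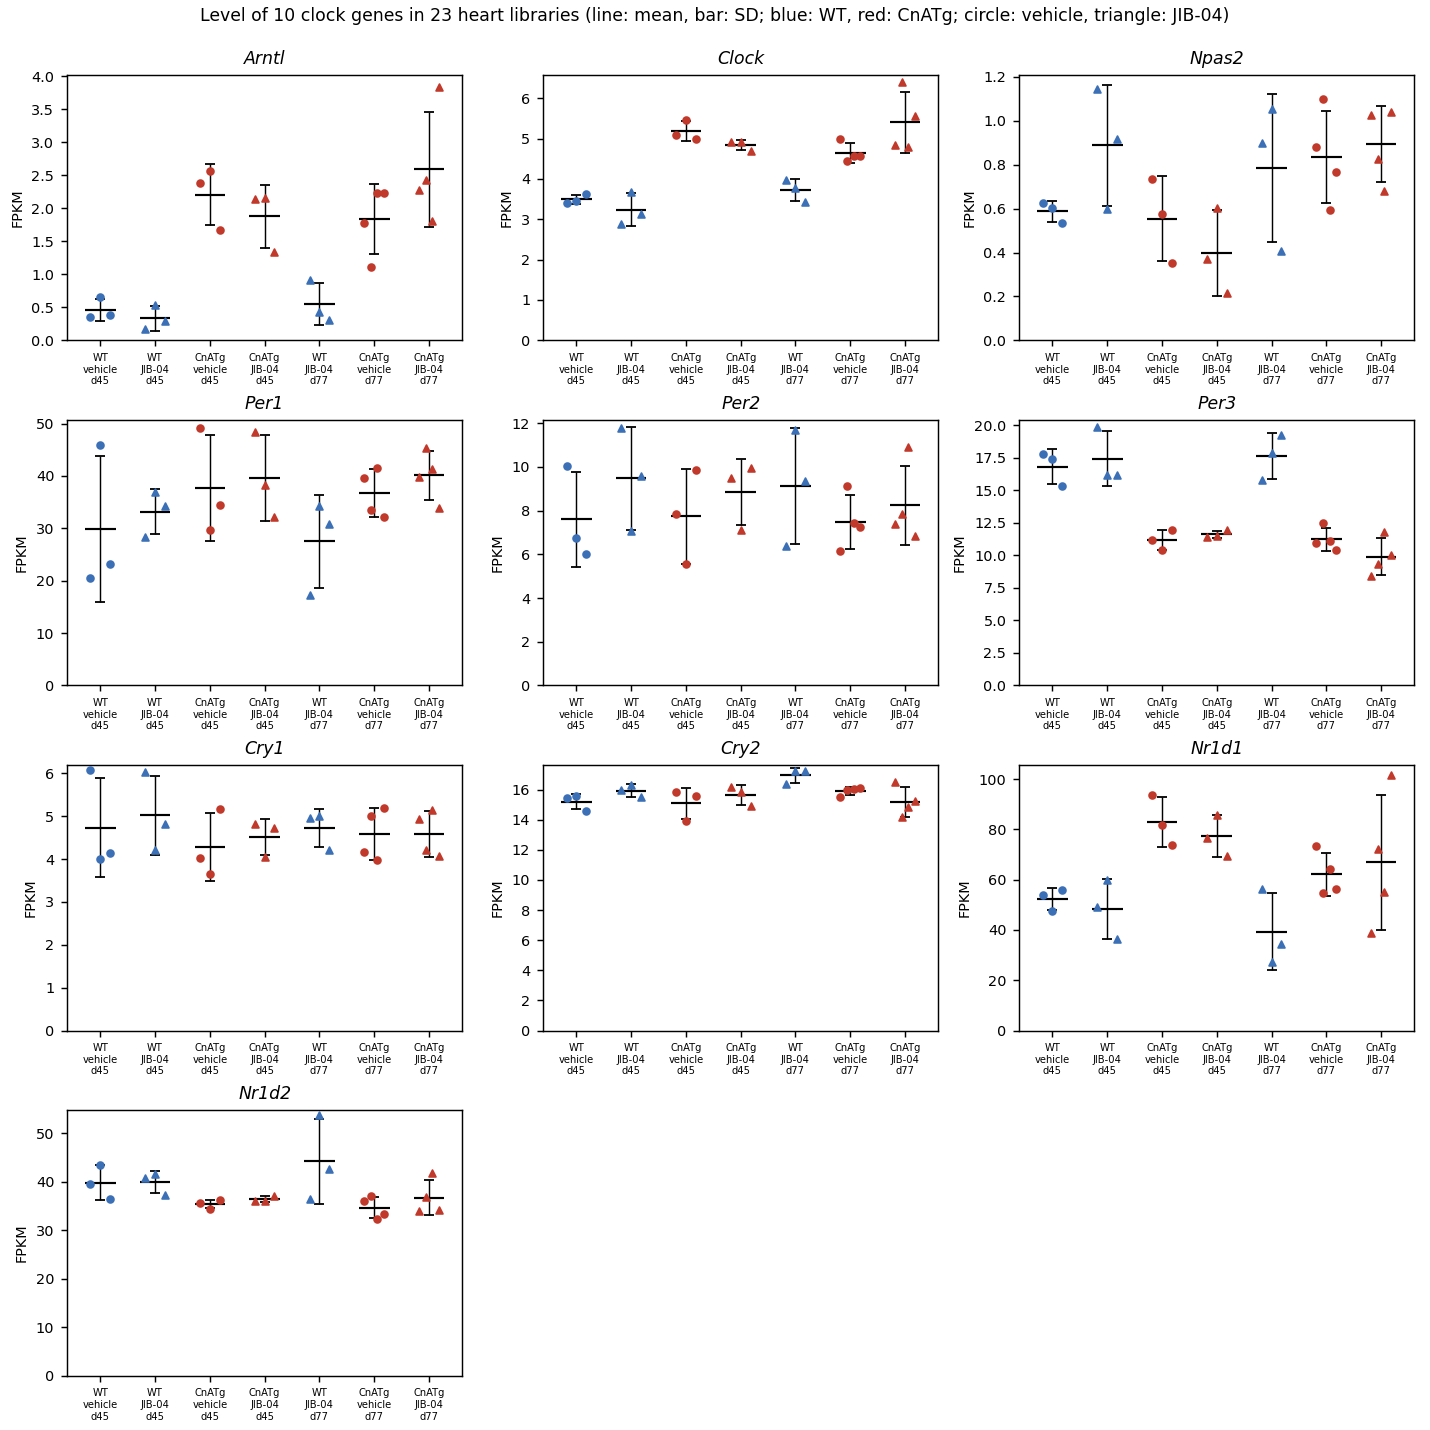
FPKM (vertical axis, linear from 0) of the 10 clock genes in the 7 groups (horizontal axis), with 1 point per library, the mean as a line and the SD as a bar. The 14 CnATg libraries lay above all 9 WT libraries for Arntl and Clock and below them for Per3, and the ranges overlapped for the other 7 genes. Of 13710 features, 11.1% lay above and 9.34% below in this way.

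The first question was how the clock genes differed between CnATg and WT hearts, which was asked in 3 sets of separate libraries: vehicle at day 45, JIB-04 at day 45 and JIB-04 at day 77. In both JIB-04 sets, the WT libraries are those with the separate run of sample numbers. Differences are on the log2(FPKM + 1) scale, which understates the change of low genes, and were tested with limma across all features with Benjamini-Hochberg adjustment and a threshold of 0.05. Arntl and Clock were higher and Per3 was lower in CnATg hearts in all 3 sets. Nr1d1 was higher in both day-45 sets, and Per1 was higher at day 77. Of the 9 members tested in the vehicle set, 3 rose and 1 fell, where 39.2% of all 13289 features were called, 23.3% as higher and 15.9% as lower. The JIB-04 set of day 45 gave 3 higher and 1 lower of 9 members beside 38.6% of all features (20.5% higher, 18.1% lower). At day 77 it was 3 higher and 1 lower of 10 members beside 42.1% (19.9% higher, 22.1% lower). The members' share was thus close to that of all features in each set, and the median difference of the tested members was 0.02, -0.02 and 0.03 beside 0.07, 0.02 and -0.01 for all features.

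Arntl encodes BMAL1, a partner with which CLOCK and NPAS2 bind E-boxes. Its FPKM was 0.351, 0.651 and 0.388 in the WT vehicle libraries and 2.38, 2.56 and 1.68 in the CnATg vehicle libraries of day 45. Under JIB-04 at day 45 it was 0.169, 0.535 and 0.295 in WT and 2.15, 2.16 and 1.33 in CnATg hearts. At day 77, FPKM was 0.917, 0.428 and 0.315 in WT JIB-04 hearts, 1.78, 1.12, 2.23 and 2.24 in CnATg vehicle hearts, and 2.28, 2.43, 1.80 and 3.84 in CnATg JIB-04 hearts. Every CnATg library was above every WT library, as held for 11.1% of 13710 features. The ratio of mean FPKM was 4.77 in the vehicle set, with a log2 difference of 1.13 ± 0.17 (SE; adjusted p = 0.00025). It was 5.65 under JIB-04 at day 45 (log2 difference 1.11 ± 0.17, adjusted p = 0.00029) and 4.68 at day 77 (1.2 ± 0.21, adjusted p = 0.00081). All WT libraries were below the FPKM minimum of 1, so Arntl entered the tests through its CnATg libraries.

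Clock encodes the partner with which BMAL1 binds E-boxes. Its FPKM was 3.41, 3.46 and 3.62 in WT vehicle and 5.09, 5.46 and 5.00 in CnATg vehicle hearts of day 45. Under JIB-04 at that age it was 2.89, 3.69 and 3.14 in WT and 4.91, 4.91 and 4.70 in CnATg hearts. At day 77 it was 3.97, 3.76 and 3.42 in WT JIB-04, 4.99, 4.44, 4.57 and 4.56 in CnATg vehicle and 4.84, 6.41, 4.79 and 5.55 in CnATg JIB-04 hearts. The highest WT library, 3.97, was below the lowest CnATg library, 4.44, a separation shown by 11.1% of 13710 features. Log2 differences were 0.46 ± 0.08, 0.47 ± 0.08 and 0.43 ± 0.09 (SE) in the 3 sets, with adjusted p of 0.00067, 0.00060 and 0.0031, and the ratio of mean FPKM was 1.48, 1.5 and 1.45.

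Npas2, the paralog of Clock that can take its place beside BMAL1, was at the lowest level of the members together with Arntl of WT hearts, at 0.406 to 1.15 FPKM in WT and 0.216 to 1.10 in CnATg libraries. It did not pass the low-value filter at day 45. Without that filter the log2 difference was -0.04 in the vehicle set and -0.43 under JIB-04 at day 45 (adjusted p = 0.054), and at day 77 it was 0.10 ± 0.15 (SE, adjusted p = 0.63). In the order of group means, CnATg groups held the 4 highest places for Arntl and Clock, and the lowest CnATg group did not overlap the highest WT group. For Npas2 the genotypes were mixed in that order, and neighbours overlapped throughout.

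**Figure D2:**
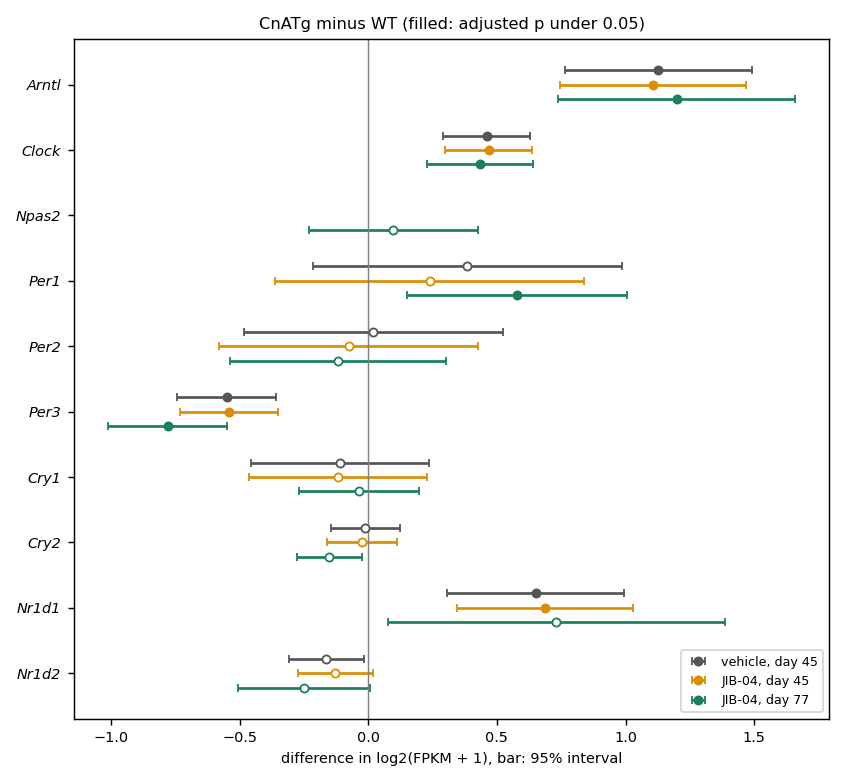
Difference between CnATg and WT hearts in log2(FPKM + 1) (horizontal axis) for each clock gene (vertical axis) in 3 sets of libraries, with 95% intervals and filled points for an adjusted p under 0.05. Arntl and Clock lie to the right of 0 and Per3 to the left in all 3 sets, with Arntl at 1.11 to 1.2. Npas2, which was not tested at day 45, is shown for day 77 alone.

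Per3, a Period gene whose loss leaves the core rhythm largely in place in mice, was the 1 member lower in CnATg hearts. Its FPKM was 17.8, 17.4 and 15.3 in WT vehicle and 11.1, 10.4 and 11.9 in CnATg vehicle hearts of day 45. With JIB-04 at day 45 it was 19.9, 16.2 and 16.2 in WT and 11.4, 11.4 and 11.9 in CnATg hearts. Day-77 libraries had 15.8, 17.9 and 19.3 in WT JIB-04, 10.9, 12.5, 11.1 and 10.4 in CnATg vehicle, and 8.40, 9.32, 11.8 and 10.1 in CnATg JIB-04 hearts. The lowest WT library, 15.3, was above the highest CnATg library, 12.5, a separation shown by 9.34% of 13710 features. CnATg levels were 0.663, 0.667 and 0.561 of the WT mean in the 3 sets, with log2 differences of -0.55 ± 0.09, -0.54 ± 0.09 and -0.78 ± 0.11 (SE) and adjusted p of 0.00042, 0.00049 and 0.00013. When the libraries were rescaled without mitochondrial and hemoglobin genes, the JIB-04 difference of day 45 was -0.30 (adjusted p = 0.061).

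Per1, a Period gene that also responds to glucocorticoids and other acute signals, varied widely within groups. Its FPKM was 20.5, 45.9 and 23.3 in WT vehicle and 49.1, 29.7 and 34.5 in CnATg vehicle hearts of day 45, so that the groups overlapped. Under JIB-04 at day 45 it was 28.4, 36.9 and 34.3 in WT and 48.4, 38.3 and 32.2 in CnATg hearts, which overlapped too. At day 77 it was 17.3, 34.2 and 30.9 in WT JIB-04 and 39.9, 45.3, 41.4 and 33.9 in CnATg JIB-04 hearts, beside 39.7, 33.5, 41.5 and 32.2 in CnATg vehicle hearts. Between the JIB-04 groups this was a log2 difference of 0.58 ± 0.19 (SE, adjusted p = 0.032). Without WT JIB-04 replicate 1, the library at 17.3, that difference was 0.29 (adjusted p = 0.10), and without CnATg JIB-04 replicate 1, 2 or 3 the adjusted p was 0.056, 0.078 and 0.065. At day 45 the differences were 0.39 ± 0.27 (adjusted p = 0.29) with vehicle and 0.24 ± 0.27 (adjusted p = 0.53) with JIB-04. Without WT vehicle replicate 2, the library at 45.9, the vehicle difference was 0.73 (adjusted p = 0.021).

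Per2 and the Cryptochromes, which also encode parts of the repressor complex, were not called in any set. FPKM of Per2 was 6.01 to 11.8 in WT and 5.53 to 10.9 in CnATg libraries, with log2 differences of 0.02, -0.08 and -0.12 and 95% intervals that reached from -0.58 to 0.52 over the 3 sets. Cry1 ran from 3.99 to 6.07 in WT and 3.64 to 5.19 in CnATg libraries, with differences of -0.11, -0.12 and -0.04. Cry2 was the steadiest member, at 14.6 to 17.3 in WT and 13.9 to 16.5 in CnATg libraries. Its differences were -0.01, -0.02 and -0.15, the last with an adjusted p of 0.055, and that difference passed the threshold without CnATg JIB-04 replicate 1 of day 77 (-0.19, adjusted p = 0.020).

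Nr1d1 encodes REV-ERB alpha, a repressor of Arntl. Its FPKM was 53.7, 47.6 and 55.9 in WT vehicle and 93.5, 81.5 and 74.0 in CnATg vehicle hearts of day 45, and 49.2, 59.9 and 36.2 in WT JIB-04 and 76.7, 85.9 and 69.4 in CnATg JIB-04 hearts. These groups did not overlap at day 45, as held for 49.6% of all features with vehicle and 50.5% with JIB-04. The log2 differences were 0.65 ± 0.16 (SE, adjusted p = 0.0065) and 0.69 ± 0.16 (adjusted p = 0.0048). At day 77 it was 56.3, 27.1 and 34.5 in WT JIB-04, 73.4, 54.7, 64.1 and 56.4 in CnATg vehicle and 38.7, 72.1, 55.1 and 102 in CnATg JIB-04 hearts. The day-77 difference of 0.73 ± 0.30 had an adjusted p of 0.070, and the groups overlapped. It was 1.02 (adjusted p = 0.022) without WT JIB-04 replicate 1, the highest WT library, and 0.96 (adjusted p = 0.015) without CnATg JIB-04 replicate 1, the lowest CnATg library. Nr1d1 and Arntl, a repressor and its target, were thus both higher in CnATg hearts at day 45.

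Strand was not kept in these libraries, and 263 of the 3077 exon bases of Nr1d1 (8.5%) lie opposite exons of Thra, the thyroid hormone receptor alpha gene. Thra was expressed at 27.1 to 51.5 FPKM and was lower in CnATg hearts, by log2 differences of -0.45, -0.44 and -0.46. Rescaled without mitochondrial and hemoglobin genes, Thra was not called under JIB-04 at day 45 (-0.19, adjusted p = 0.086) or day 77 (-0.23, adjusted p = 0.073). The part of reads from Thra in the Nr1d1 values was not tested. Cry2 shares 4.7% of its exon bases with D930015M05Rik, which reached at most 0.413 FPKM, and Arntl shares 0.4% with Gm45355. Nr1d2, the gene of REV-ERB beta, was 36.3 to 53.7 FPKM in WT and 32.4 to 41.7 in CnATg libraries. Its differences were -0.16, -0.13 and -0.25, with adjusted p of 0.074, 0.16 and 0.11, although the groups did not overlap in the day-45 sets, as held for 49.6% and 50.5% of all features. The vehicle difference passed the threshold with median-ratio scaling (-0.23, adjusted p = 0.015), quantile normalization (-0.28, 0.0083) or sex as a covariate (-0.16, 0.049), and without WT vehicle replicate 3 (-0.22, 0.024). The day-77 difference did so without WT JIB-04 replicate 1 (-0.38, adjusted p = 0.020).

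Over all libraries, 3 of the 10 members, 2 higher and 1 lower, separated the 14 CnATg from the 9 WT libraries without overlap. Of 13710 features, 20.4% did so, 11.1% as higher and 9.34% as lower. Members are located on GRCm38 at chr7:113207465-113314122 (Arntl), chr5:76212177-76304548 (Clock), chr1:39193731-39363236 (Npas2), chr11:69095217-69109960 (Per1), chr1:91415982-91459324 (Per2), chr4:151003652-151044665 (Per3), chr10:85131702-85185054 (Cry1), chr2:92403646-92434043 (Cry2), chr11:98767932-98775333 (Nr1d1) and chr14:18204054-18239127 (Nr1d2). Arntl, Clock and Per3, the separating genes, lie on different chromosomes.

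Markers of several cell types moved with genotype beside these genes. Of all features, 23.3%, 20.5% and 19.9% were called higher and 15.9%, 18.1% and 22.1% lower in the 3 sets. Summed FPKM of 7 endothelial markers was 305.7 to 382.6 in WT and 155.3 to 246.6 in CnATg libraries, and 7, 6 and 7 of them were lower in the 3 sets. Fibroblast markers summed to 263.3 to 314.5 in WT and 375.5 to 573.3 in CnATg libraries, and 6, 6 and 4 of 6 were higher. Of 7 ventricular muscle markers, 4 were lower in each set, and all 7 mitochondrially encoded genes on the list were lower. Smooth muscle and pericyte markers summed to 187.8 to 316.7 in WT and 317.2 to 603 in CnATg libraries, and of the 5, Acta2 was higher and Kcnj8 and Rgs5 were lower in each set. The 4 atrial muscle markers, Nppa included, summed to 196.2 to 358.2 in WT and 326.5 to 1279 in CnATg libraries, with 2 higher in the vehicle set, 1 under JIB-04 at day 45 and 2 at day 77. Myl7, an atrial myosin light chain, stood apart in CnATg vehicle replicate 1 (82.7 FPKM) and WT JIB-04 replicate 3 (20.6) of day 45 and also in CnATg vehicle replicate 4 of day 77, beside at most 7.74 in the other libraries. Without the first or the second of these, the same count of 4 members was called in the day-45 genotype comparison that used it. Of 4 macrophage markers, Cd68 was higher in the vehicle set and Csf1r lower at day 77. None of 5 erythroid markers was called in any set, nor was the 1 tested Schwann marker. Of the T and B cell markers and the fat markers, 1 each was tested at day 45, with Cd79a lower and Cidea higher in both sets. No marker of these lists was at 0 in every library. Their part in the clock gene differences was not tested, and in whole hearts fewer cells of a type and less RNA per cell cannot be told apart.

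In the D-box branch, the repressor Nfil3 was higher and the activator Hlf lower in CnATg hearts in all 3 sets, where 19.9% to 23.3% of all features were called higher and 15.9% to 22.1% lower. Nfil3 had an FPKM of 2.75 to 6.07 (median 4.5) in WT and 7.29 to 11.9 (median 9.0) in CnATg libraries. The ranges did not overlap, as held for 20.4% of 13710 features, 11.1% as higher and 9.34% as lower. The log2 differences of Nfil3 were 0.84 ± 0.17, 0.80 ± 0.17 and 0.92 ± 0.16 (SE), with adjusted p of 0.0023, 0.0033 and 0.00082. Of the 3 activators, Hlf and Tef were lower in all 3 sets and Dbp was not called in any. Hlf had 10.5 to 17.0 (median 13.4) in WT and 5.37 to 9.02 (median 7.23) in CnATg libraries, with differences of -0.99 ± 0.13, -0.85 ± 0.13 and -0.72 ± 0.16 and adjusted p of 0.00010, 0.00033 and 0.0040. Tef had 83.0 to 107 in WT and 66.0 to 82.8 in CnATg libraries, with differences of -0.36, -0.26 and -0.39 and adjusted p of 0.0070, 0.036 and 0.0034. The Tef call under JIB-04 at day 45 was lost without WT JIB-04 replicate 1 (-0.17, adjusted p = 0.14) or replicate 3 (-0.26, 0.075), and without CnATg JIB-04 replicate 1 (-0.28, 0.054), 2 (-0.23, 0.11) or 3 (-0.26, 0.077). When the libraries were rescaled without mitochondrial and hemoglobin genes, Tef was not called in any set, at -0.25, -0.01 and -0.16. Dbp, which is among the strongest cycling transcripts of most tissues, was 84.6 to 162 in WT and 76.5 to 155 in CnATg libraries, with differences of -0.13, -0.04 and -0.00. The part of these factors in the Per3 level was not tested.

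**Figure D3:**
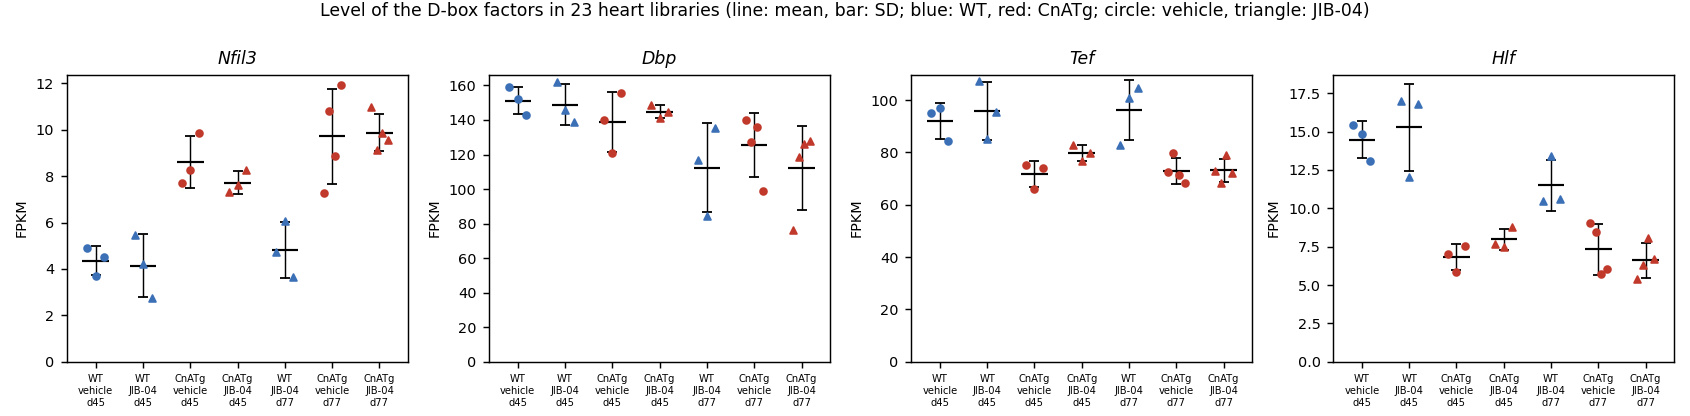
FPKM (vertical axis, linear from 0) of Nfil3, Dbp, Tef and Hlf in the 7 groups (horizontal axis), with 1 point per library, the mean as a line and the SD as a bar. All 14 CnATg libraries lie above the 9 WT libraries for Nfil3 and below them for Tef and Hlf, while the ranges overlap for Dbp. Of 13710 features, 20.4% separated the genotypes without overlap, 11.1% as higher and 9.34% as lower.

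Among 8 other genes of the clock loops, 7 were tested, with 3, 2 and 1 higher in the 3 sets and 1 lower in each, beside the 23.3%, 20.5% and 19.9% of all features called higher and the 15.9%, 18.1% and 22.1% called lower. Bhlhe41, the gene of the E-box repressor DEC2, rose by 0.41 and 0.41 at day 45 (adjusted p = 0.0014 and 0.0016) and differed by 0.52 at day 77 (adjusted p = 0.052; without WT JIB-04 replicate 3 or CnATg JIB-04 replicate 1 it was 0.66 and 0.68, adjusted p = 0.033 and 0.0086). Ciart, a repressor of BMAL1 and CLOCK, differed by 0.47, 0.47 and 0.82, with adjusted p of 0.049, 0.052 and 0.085. The vehicle call was lost under 6 of 11 other settings (adjusted p up to 0.12). It was also lost without WT vehicle replicate 1 or 3 (0.51 and 0.34) or CnATg vehicle replicate 1 or 3 (0.38 and 0.37), with adjusted p of 0.074, 0.17, 0.16 and 0.16. The day-77 difference ran from 0.35 to 1.17 when 1 library was left out, and it passed the threshold without WT JIB-04 replicate 3 or CnATg JIB-04 replicate 1 (adjusted p = 0.024 and 0.049). Its WT libraries ran from 4.77 to 19.0 and its CnATg libraries from 11.8 to 30.4 FPKM. Rora, whose protein activates Arntl, was not called, at 0.30, 0.22 and -0.03. Bhlhe40 was not called, at 0.09, 0.19 and 0.47. Timeless, better known for its role at replication forks, fell in all 3 sets, with differences of -0.75, -0.74 and -1.06.

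Of 7 tested genes for kinases and turnover of clock proteins, 3, 4 and 4 were higher and 1, 1 and 2 lower, beside 39.2%, 38.6% and 42.1% of all features called in either direction. Csnk1d and Csnk1e, whose casein kinases phosphorylate PER proteins, went opposite ways, with differences of 0.39, 0.33 and 0.51 for Csnk1d and of -0.33, -0.37 and -0.28 for Csnk1e, all called. Rescaled without mitochondrial and hemoglobin genes, Csnk1e was not called in any set (-0.23, -0.13 and -0.06, adjusted p = 0.14, 0.38 and 0.56). Its vehicle call was also lost without WT vehicle replicate 1 (-0.28, adjusted p = 0.063) or CnATg vehicle replicate 3 (-0.27, adjusted p = 0.071). Usp2, a clock-controlled deubiquitinase, rose by 0.33, 0.43 and 0.41, and Btrc, a subunit of the ligase that marks PER proteins, by 0.31, 0.30 and 0.24. Of 11 tested genes known as clock outputs in the heart, 4, 4 and 3 were higher and 3 were lower in each set, beside the same shares. Kcnip2, a subunit of the channel of the transient outward potassium current, rose by 1.18, 1.02 and 0.91. Nampt, the rate-limiting enzyme of NAD salvage, fell, with differences of -0.40, -0.51 and -0.64. The same rescaling gave Nampt -0.26 (adjusted p = 0.065) under JIB-04 at day 45 and -0.41 (0.056) at day 77. The day-77 call was also lost with the replicate block (-0.60, 0.051) and without WT JIB-04 replicate 2 (-0.44, 0.053). The list medians were 0.19, 0.15 and 0.22 beside 0.07, 0.02 and -0.01 for all features.

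Among 14 chromatin cofactors of the clock, 2, 2 and 3 were higher and 1, 2 and 2 lower, so that the share called was below the 39.2%, 38.6% and 42.1% of all features. Kdm5a, a Jumonji demethylase that acts as a coactivator of BMAL1 and CLOCK, rose by 0.32 with vehicle (adjusted p = 0.0016), differed by 0.18 under JIB-04 at day 45 (adjusted p = 0.032) and was not called at day 77 (0.16, adjusted p = 0.21). The JIB-04 call of day 45 was lost without WT JIB-04 replicate 3 (0.14, adjusted p = 0.12) or CnATg JIB-04 replicate 1, 2 or 3 (adjusted p = 0.066, 0.060 and 0.098). It was also lost with quantile normalization (0.065) and with the compared groups alone in the fit (0.091). Kdm6b, another Jumonji demethylase, was lower, with differences of -0.35, -0.34 and -0.35. Rescaled without mitochondrial and hemoglobin genes, Kdm6b was not called in any set (-0.25, -0.11 and -0.14, adjusted p = 0.066, 0.39 and 0.34). Its day-77 call was also lost without a low-value filter (0.060), with sex as a covariate (0.061), and without WT JIB-04 replicate 1 or 3 (0.094 and 0.071) or CnATg JIB-04 replicate 1 or 2 (0.068 and 0.069). Of 9 glucocorticoid and stress genes, 2, 2 and 1 were higher and 0, 1 and 0 lower, with Cdkn1a higher in all 3 sets (0.86, 0.68 and 1.24). The day-77 call of Cdkn1a was lost without WT JIB-04 replicate 1 (0.91, adjusted p = 0.066) or replicate 3 (1.09, adjusted p = 0.057). Of 8 tested immediate early genes, 4, 2 and 3 were higher and none lower. For both lists the shares of all features called higher were 23.3%, 20.5% and 19.9%. Atf3 rose by 1.67, 1.64 and 1.88 and Jun by 0.68, 0.71 and 0.96. Genes of both lists respond quickly to stress, as Per1 can, and their part in the Per1 values was not tested.

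The second question was whether JIB-04 changed the clock genes. No member tested was called in any of the 3 comparisons of JIB-04 with vehicle, and none had an unadjusted p under 0.05. Npas2 did not pass the low-value filter at day 45. Without that filter, limma gave Npas2 -0.15 in CnATg and 0.24 in WT hearts of day 45 (unadjusted p = 0.28 and 0.11). Few features of any kind were called: 0.00753% in CnATg hearts of day 45, 0% in WT hearts of day 45 and 0% in CnATg hearts of day 77. At an unadjusted p under 0.05 the shares were 4.40%, 4.33% and 7.45%. Arntl differed by -0.16 (95% interval -0.52 to 0.20) in CnATg hearts of day 45, by -0.14 (-0.50 to 0.22) in WT hearts of day 45 and by 0.33 (-0.10 to 0.75) in CnATg hearts of day 77. Clock differed by -0.08 (-0.25 to 0.09), -0.09 (-0.26 to 0.08) and 0.18 (-0.01 to 0.37), and its day-45 CnATg libraries did not overlap, as held for 11.2% of features there. Per3 differed by 0.05 (-0.14 to 0.24), 0.04 (-0.15 to 0.23) and -0.17 (-0.39 to 0.04), and Nr1d1 by -0.10, -0.14 and 0.03. The interval was widest for Nr1d1 at day 77, from -0.58 to 0.63, and narrowest for Cry2 at that age, from -0.18 to 0.05. The 2 day-45 CnATg comparisons, of genotype and of drug, share libraries, and their values are given side by side only.

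**Figure D4:**
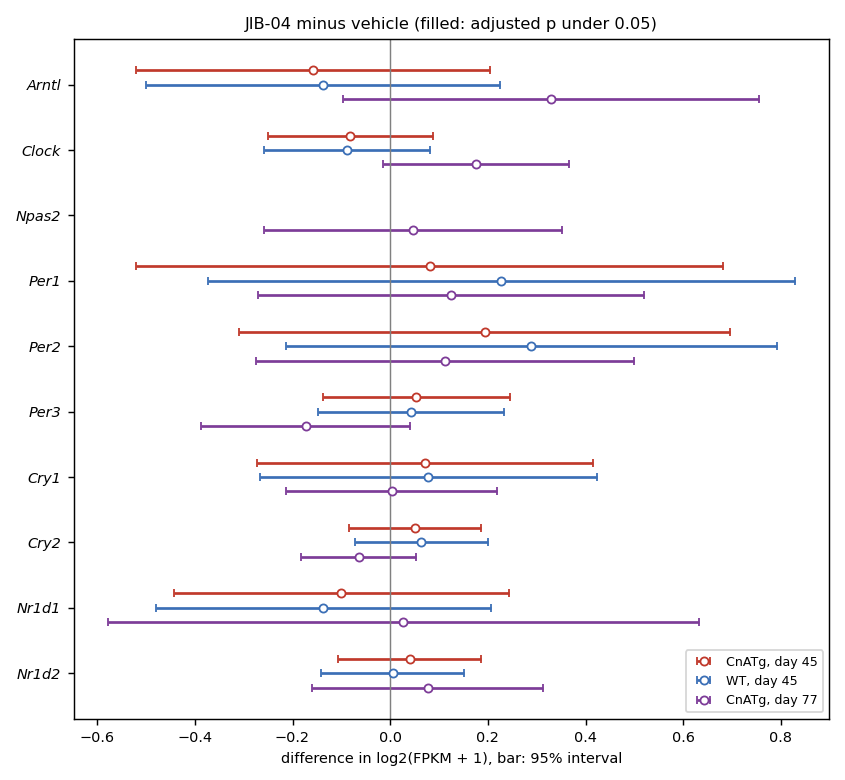
Difference between JIB-04 and vehicle in log2(FPKM + 1) (horizontal axis) for each clock gene (vertical axis) in CnATg hearts of day 45, WT hearts of day 45 and CnATg hearts of day 77, with 95% intervals. All points are open, since no adjusted p was under 0.05, and every interval includes 0. Npas2, which was not tested at day 45, is shown for day 77 alone.

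The genotype difference was also compared between treatments and ages by interaction terms. No member was called, where 0.00753%, 0.00729% and 0% of features were called for genotype by drug, genotype by age and drug by age. Genotype by drug at day 45 gave -0.02 ± 0.23 (SE) for Arntl, 0.01 ± 0.11 for Clock, 0.01 ± 0.12 for Per3 and 0.04 ± 0.22 for Nr1d1. Drug by age in CnATg hearts gave 0.26 ± 0.11 for Clock (unadjusted p = 0.035) and 0.49 ± 0.27 for Arntl (unadjusted p = 0.087), with an adjusted p of 1 for both.

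Age was compared in CnATg hearts on vehicle, in those on JIB-04 and in WT hearts on JIB-04, where 0.0365%, 0.0365% and 0.328% of 13710 features and no member were called. Npas2 was the member that differed most in CnATg JIB-04 hearts, with FPKM of 0.371, 0.605 and 0.216 at day 45 and of 1.03, 0.825, 0.679 and 1.04 at day 77. These libraries did not overlap, as held for 8.36% of features. The log2 difference was 0.44 ± 0.14 (SE; unadjusted p = 0.0063, adjusted p = 0.45), and genotype by age under JIB-04 gave 0.53 ± 0.21 for Npas2 (adjusted p = 0.67). Per3 differed by -0.22 in CnATg JIB-04 hearts (adjusted p = 0.60) and by 0.01 and 0.02 in the other 2 groups. Clock and Nr1d1 were lower at day 77 without overlap in CnATg vehicle hearts, as held for 8.61% of features, with differences of -0.13 (adjusted p = 0.79) and -0.41 (adjusted p = 0.80). Cry2 was higher without overlap in WT JIB-04 hearts, as held for 17.2% of features (0.08, adjusted p = 0.53). Genes of the other clock lists gave no call in any drug or age comparison.

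Libraries of the same group differed from each other mainly in Nr1d1, Per1, Per2 and Arntl. The within-group SD in log2(FPKM + 1) was 0.36 for Nr1d1, 0.35 for Per1, 0.30 for Per2 and 0.26 for Arntl, larger than that of 94.3%, 93.8%, 91.5% and 87.4% of 13710 features. Clock at 0.10 and Cry2 at 0.06 were steadier than most features, with 26.8% and 3.5% of features below them. Per3 at 0.13 and Nr1d2 at 0.13 were near the middle. The widest differences in 1 group were those of Nr1d1 in CnATg JIB-04 hearts of day 77, from 38.7 in replicate 1 to 102 in replicate 4.

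Within groups, libraries with more Arntl had less Per2, and those with more Per2 had more Per3 and Cry1. After the mean of each group was subtracted, Arntl and Per2 had Pearson's r = -0.71 over 23 libraries (permutation p = 0.0013, adjusted over 45 pairs 0.025) and Spearman's rho = -0.75 (permutation p = 0.00056, adjusted 0.021). Per2 and Per3 had r = 0.73 (permutation p = 0.0012, adjusted 0.025) and rho = 0.71 (permutation p = 0.0020, adjusted 0.022), and Per2 and Cry1 had r = 0.73 (permutation p = 0.0016, adjusted 0.025) and rho = 0.71 (permutation p = 0.0016, adjusted 0.022). Without the 2 libraries farthest from the median of the first gene, r was -0.70, 0.69 and 0.80. These 3 were the pairs past the threshold by both measures. Genes share depth and RNA quality within a library, so these p-values do not set the pairs apart from pairs of other genes. The share of all feature pairs with r of this size was not computed. Genes outside the clock lists reached r of -0.89 (Noc3l) and 0.81 (Adamts5) with Arntl. Clock and Per2 (r = -0.59, permutation p = 0.0089, adjusted 0.10; rho = -0.69, permutation p = 0.00093, adjusted 0.021) and Arntl and Clock (r = 0.51, permutation p = 0.055, adjusted 0.20; rho = 0.69, permutation p = 0.0031, adjusted 0.028) passed by rank alone. Arntl and Nr1d1 had r = 0.60 (permutation p = 0.022, adjusted 0.14) and rho = 0.61 (permutation p = 0.014, adjusted 0.063).

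The count of pairs depended on single libraries. No pair passed by Pearson's r without any 1 of the 3 WT JIB-04 or the 3 CnATg vehicle libraries of day 45, without CnATg vehicle replicate 2 or without CnATg JIB-04 replicate 3 of day 77. A single pair passed without WT JIB-04 replicate 1 of day 77, and 6, 7 and 5 pairs passed without the day-77 libraries of WT JIB-04 replicate 3 and of replicates 1 and 2 of the CnATg JIB-04 group. The r values moved less: leaving out 1 library at a time gave -0.76 to -0.65 for Arntl and Per2, 0.68 to 0.77 for Per2 and Per3, and 0.67 to 0.86 for Per2 and Cry1. Per1 did not go with Per2 (r = 0.11, permutation p = 0.71, adjusted 0.92; rho = 0.14, permutation p = 0.64, adjusted 0.85).

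**Figure D5:**
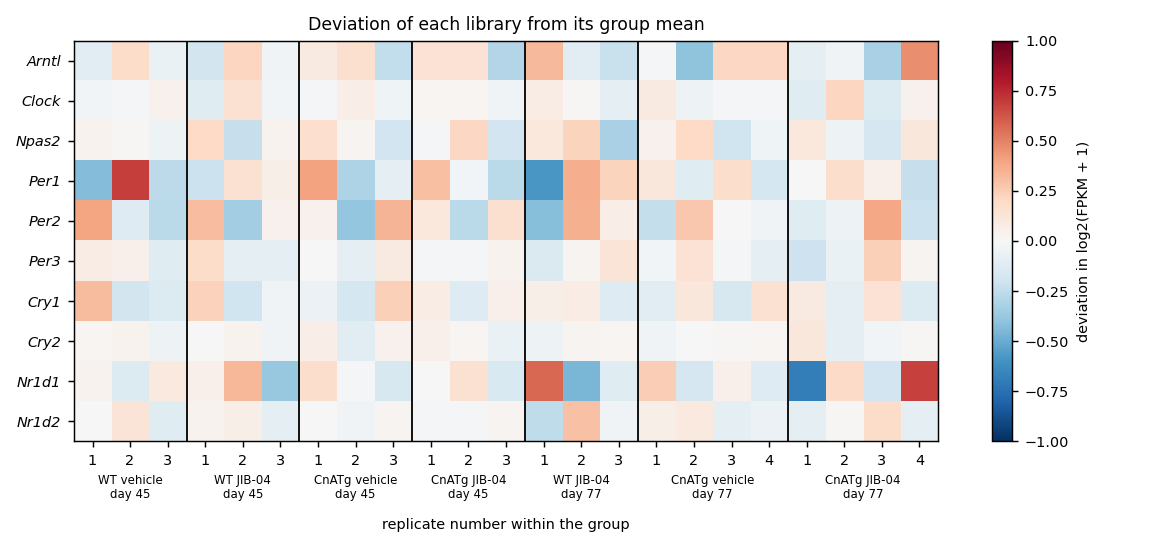
Deviation of each library from its group mean in log2(FPKM + 1) (color scale from -1 to 1) for the 10 clock genes (rows) in 23 libraries (columns, by group and replicate number). Libraries with Arntl above its group mean tend to have Per2 below it, and the deepest colors are in the rows of Nr1d1 and Per1.

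Genes whose deviations followed those of Arntl or Nr1d1 most closely are given as a description over 23 libraries. Of 10057 genes, those most like Arntl were Adamts5 (r = 0.81), Slc41a3 (0.81), Thra (0.80), Gltscr1 (0.78), Myo18b (0.76) and Tmem39b (0.76). Those most opposed to it were Noc3l (-0.89), Cib1 (-0.84), Rab1b (-0.82), Sptlc1 (-0.81), Exosc8 (-0.80) and Gsta3 (-0.80). For Nr1d1, Slc41a3 (0.82), Mpzl1 (0.81), Entpd2 (0.80), Lmo2 (0.79), Wrb (0.78) and Tmem263 (0.77) were most alike among 10056 genes. Gpihbp1 (-0.92), Sult1a1 (-0.87), Thrsp (-0.87), Wee1 (-0.86), Phactr4 (-0.84) and Sox17 (-0.84) were most opposed to Nr1d1. Slc41a3 was in both lists. Wee1, a kinase gene of the cell cycle that BMAL1 and CLOCK activate, is the 1 gene of these that was also on a clock list, and its genotype differences of 0.19, -0.07 and 0.09 were not called. The points share depth and RNA quality within a library as well as group centring, so these values carry no p.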

How the data were processed

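For the 23 libraries, RNA of mouse hearts was extracted with Trizol and sequenced from a non-directional mRNA library, per the labels' protocols. The submitters' processing notes name Cufflinks 2.2.1, STAR 2.7.1a, GATK 4.1.2 and Picard, with the build GRCm38, and what each step did is not given in the sources used here. Per the file headers, each deposited value is the log2 FPKM of a feature. They held no value below 0 and many exact zeros, so they were read as log2(FPKM + 1) and used without further transformation, and FPKM was computed back from them. In 6 files 1 blank line was dropped, 58 symbols occurred more than once (no clock gene among them), and 3 mitochondrial genes (mt-Atp6, mt-Atp8 and mt-Co3), of which mt-Co3 was at 0 in 13 libraries, were left out as failed estimates.

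Read counts and depth are unknown, so precision rests on the spread between libraries. No 2 libraries were identical, and both sexes, read from Xist and Ddx3y (9 male and 14 female libraries), occurred in all 7 groups. Groups followed the labels. Differences were fitted with limma 3.58.1 in R 4.3.3 (group means, empirical Bayes with intensity trend, two-sided) on the 12 day-45 libraries, the 11 day-77 libraries, or all 23 where ages were compared, over features that reached an FPKM of 1 in 3 or more libraries. Benjamini-Hochberg adjustment ran over all features tested, with a threshold of 0.05. The fitting code was checked on simulated data in which few genes changed. The genotype comparisons call a far larger share of features, so that check does not cover their setting. Correlations used group-centred values, 45 pairs and 100000 two-sided permutations within groups (Python 3.11.15, SciPy 1.17.1). Alternatives changed the added FPKM (0.1 or 0.5), the low-value filter, the scaling, the libraries in the fit, the covariates and the intensity trend, and left out each library in turn.

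The members, lists, comparisons and tests were chosen with earlier results of these data known. All 10 members are described. Of the other lists, members past the threshold could be named, and Dbp, Tef, Hlf, Nfil3, Rora, Ciart, Bhlhe40, Bhlhe41 and Kdm5a were named in any case; 1 gene of the lists is not reported here. The genes most like Arntl and Nr1d1 are the 6 highest and the 6 lowest by r, without gene models and pseudogenes.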

Additional observations from a re-analysis of the deposited data

How the results depend on the processing

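The count of clock members called in the genotype comparisons was 3 to 5 under every alternative run, against 4 in each comparison, and it was 0 under every alternative in the drug, age and interaction comparisons. The members called were not always the same. At day 77, 2 were higher and 2 lower without a low-value filter. Scaling without mitochondrial and hemoglobin genes gave 4 higher and 1 lower there, against 3 higher and 1 lower in the main fit. Arntl, Clock, Nfil3 and Hlf kept their call in all 3 genotype comparisons wherever they were tested, but Arntl was not tested when an FPKM of at least 1 was required in every library. Pooled over group pairs, same-numbered libraries had a median r of -0.04 over 28 pairs, 3 of them over 0.1, against 0.02 over 66 pairs of other numbers. Between WT vehicle and WT JIB-04 of day 45, same-numbered libraries had r of 0.21, 0.05 and 0.24, and those of other numbers -0.22 to -0.006. The pooled median cannot exclude pairing between particular groups. No label links the numbers, so the main fits did not pair the samples. With the replicate block, 4 members were called in each genotype comparison and 0 in every other comparison. The 3 pairs of members that correlated within groups became 0 after quantile normalization, and leaving out 1 library gave 0 to 7 pairs.

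Leaving mitochondrial and hemoglobin genes out of the scaling moved the median genotype difference of all features to 0.16, 0.23 and 0.19, from 0.07, 0.02 and -0.01, and changed the split of calls from 3100 higher and 2113 lower to 3575 and 1296 in the vehicle comparison, and from 2728 and 2400 to 5071 and 1014 under JIB-04 at day 45. Median-ratio scaling and quantile normalization gave 2534 and 2669, and 2380 and 2821, in the vehicle comparison. Scaling without mitochondrial and hemoglobin genes shifted the libraries of a group unequally. In WT JIB-04 hearts of day 45, the median shift was -0.34 for replicate 2, beside -0.05 and -0.09 for replicates 1 and 3. The part of that library in the changes under JIB-04 at day 45 was not tested. All differences that changed sign were small and uncalled. Leaving out those genes reversed, in the vehicle comparison, Cry2 (0.0905). Under JIB-04 at day 45 it reversed Per2 (0.148), Cry1 (0.0877), Cry2 (0.214), Nr1d2 (0.119) and Dbp (0.215), and at day 77 Per2 (0.0899), Cry1 (0.156), Cry2 (0.0676), Dbp (0.227) and Rora (0.165), beside Per3 for JIB-04 in WT hearts (-0.0832). Median-ratio scaling and quantile normalization gave -0.0389 and -0.0382 for Per2 in the vehicle comparison, and 0.00781 and 0.0950 for Dbp at day 77. Quantile normalization also reversed Bhlhe40 in the vehicle comparison (-0.00512) and Dbp under JIB-04 at day 45 (0.0025). The replicate block gave 0.0145 for Dbp and 0.00588 for Rora at day 77, and sex as a covariate 0.0139 for Rora.

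Leaving out 1 library at a time reversed further uncalled differences. In the vehicle comparison the ranges were -0.151 to 0.216 for Per2, -0.228 to 0.0502 for Cry1 and -0.0438 to 0.0432 for Cry2. Under JIB-04 at day 45 they were -0.252 to 0.0795 for Per2, -0.0478 to 0.00967 for Cry2 and -0.0855 to 0.0250 for Dbp. At day 77 they were -0.0663 to 0.207 for Npas2, -0.330 to 0.0615 for Per2, -0.101 to 0.0110 for Cry1, -0.193 to 0.170 for Dbp and -0.189 to 0.180 for Rora. For JIB-04 against vehicle they were -0.0495 to 0.0905 for Per3 and -0.302 to 0.0535 for Nr1d1 in WT hearts, and -0.201 to 0.257 for Nr1d1 in CnATg hearts of day 77. The cause of these changes was not tested. The call of Per1 at day 77 was also lost without a low-value filter (adjusted p = 0.086), with the compared groups alone in the fit (0.062) and with sex as a covariate (0.057). Low levels limit Arntl in WT hearts and Npas2 in all groups, and without read counts no detection limit can be given.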
